A study of Rattus norvegicus with 5 samples.

Results

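The transcripts described are those of 10 genes around the epidermal growth factor (EGF) receptor: 3 receptors of the ErbB family (Egfr, Erbb2 and Erbb3), 5 ligands (Hbegf, Areg, Ereg, Tgfa and Btc), the receptor inhibitor Errfi1 and the transcription factor Myc. Each was read from a probe set whose platform annotation names that gene symbol alone, and all 10 were found, with 1 such probe set each, among 14506 genes measured on 29215 probe sets. The group was selected on measured values of these arrays: Errfi1 and Myc lay higher with C-peptide while most early response genes lay lower. For that reason the values of all 10 genes in this contrast are given as a description, with no test.

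Proximal tubular cells, the epithelium of the first nephron segment, came from kidneys of diabetic (type I) Sprague-Dawley rats. They were kept for 2 h with C-peptide, the connecting peptide of proinsulin (3 arrays, 1 animal each), or untreated (2 arrays, 1 animal each). All animals were diabetic, and no arrays of animals without diabetes are analysed here. The sources used here do not give how diabetes was induced, the animals' age, the peptide's dose or whether an animal gave cells to both groups. The comparison asks how C-peptide alters transcription within hours.

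ErbB receptors are tyrosine kinases of the cell surface. A ligand such as heparin-binding EGF-like growth factor is made as a membrane protein, is cut free by a metalloprotease and makes receptors pair, after which adaptor proteins start the ERK and AKT cascades. Errfi1 (also called Mig6) binds the kinase domain of the receptor and shuts it off, and its own gene is switched on by growth factor and stress signals, while Myc is an early target of such cascades that drives genes of growth and ribosome production. In the kidney, EGF itself comes mainly from the thick limb and distal tubule, and the receptor is present along the tubular epithelium.

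The array medians as deposited ran from 60.1 to 95.9, so that arrays were first brought to 1 distribution by quantile normalisation. All intensities below are normalised unless called deposited, and differences are on the log2(intensity + 16) scale, C-peptide minus untreated, a scale that compresses changes of dim probe sets. Over all probe sets the median difference was 0.02 after normalisation and -0.13 as deposited. Limma with Benjamini-Hochberg adjustment called 0 of 29215 probe sets at adjusted p 0.05 (0%), with 3317 at unadjusted p under 0.05, and the smallest adjusted p was 0.0966. The number of arrays, 3 against 2, limits the precision of every value.

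Markers of the labelled cell type were present, and their levels differed between the groups. Proximal tubule genes lay above 0 in 17 of 18 cases with a median difference of 0.52, and their summed intensity was 31750 and 37030 on the untreated arrays against 39690 to 52170 with C-peptide. Endothelial markers, of a cell type that a tubular preparation could also hold, lay below 0 in 12 of 12 cases with a median of -1.16, and their sum was 19830 and 22600 on the untreated arrays against 8182 to 12550. The smallest p among these lists belonged to Slc17a3 (log2 difference 0.89), Cubn (0.75) and Slc3a1 (0.66) of the proximal tubule and to Tek (-1.26), Ehd3 (-1.46) and Sox18 (-2.08) of endothelium, none past the adjusted threshold. Medians were -0.49 for 11 immune cell genes, -0.50 for 6 podocyte genes, 0.23 for 8 thick limb and distal genes, 0.22 for 8 collecting duct genes and -0.12 for 8 stromal genes. The podocyte genes differed widely, from -1.32 for Podxl and -1.21 for Clic5 to -0.17 for Wt1 and 0.11 for Nphs1. In bulk cells, fewer cells of a type and less RNA per cell cannot be told apart. The part of these shifts in the results below was not tested.

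The start regions of 2 of the 10 genes are shown, because Errfi1 had the largest difference among them while Areg, a ligand whose region holds some of the same short motifs, had the smallest. Each sequence is the RefSeq promoter (GRCr8), 250 bases before to 50 bases after the annotated start, printed along the gene's own strand. Capitals mark TATAAA, the TATA box, and TGACG, the core of the cAMP response element, on either strand. Errfi1 lies on the plus strand at chr5:166606591-166606890 and Areg on the minus strand at chr14:17265592-17265891.
Errfi1: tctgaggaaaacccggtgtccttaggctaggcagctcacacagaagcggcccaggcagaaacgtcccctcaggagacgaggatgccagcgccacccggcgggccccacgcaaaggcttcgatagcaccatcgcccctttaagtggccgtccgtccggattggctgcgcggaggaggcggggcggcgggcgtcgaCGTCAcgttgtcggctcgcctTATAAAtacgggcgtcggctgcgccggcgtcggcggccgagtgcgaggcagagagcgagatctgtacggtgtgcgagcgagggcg
Areg: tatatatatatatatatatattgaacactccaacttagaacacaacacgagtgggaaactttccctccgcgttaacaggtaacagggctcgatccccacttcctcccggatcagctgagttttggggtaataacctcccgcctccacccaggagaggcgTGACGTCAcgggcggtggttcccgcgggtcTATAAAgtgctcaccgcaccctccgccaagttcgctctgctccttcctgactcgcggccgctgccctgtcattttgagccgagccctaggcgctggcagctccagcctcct

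The TATA box of Errfi1 began 35 bases before the start and the TGACG core, on the opposite strand, 56 bases before it. In Areg the TATA box began 61 bases before the start, and the core lay 91 bases before it as part of the full palindrome TGACGTCA, so that both strands read it. Over all 33469 promoters of the table, TATAAA occurred on either strand in 14.2%, TGACG in 21.2% and the full TGACGTCA, which contains the core, in 1.83%. Of the 7 genes found in the table (Errfi1, Egfr, Erbb2, Hbegf, Areg, Tgfa and Btc), 2 held TATAAA, 3 TGACG and 6 the GC box GGGCGG, which 33.1% of all promoters held. CCAAT was found in 3 of the 7 and in 37.5% of all promoters. None of the 7 held the AP-1 site TGANTCA, the E-box CACGTG or a CArG box in this window, and 7.33%, 6.42% and 1.64% of all promoters did. Such matches are letters in a window and not measured binding sites.

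**Figure D1:**
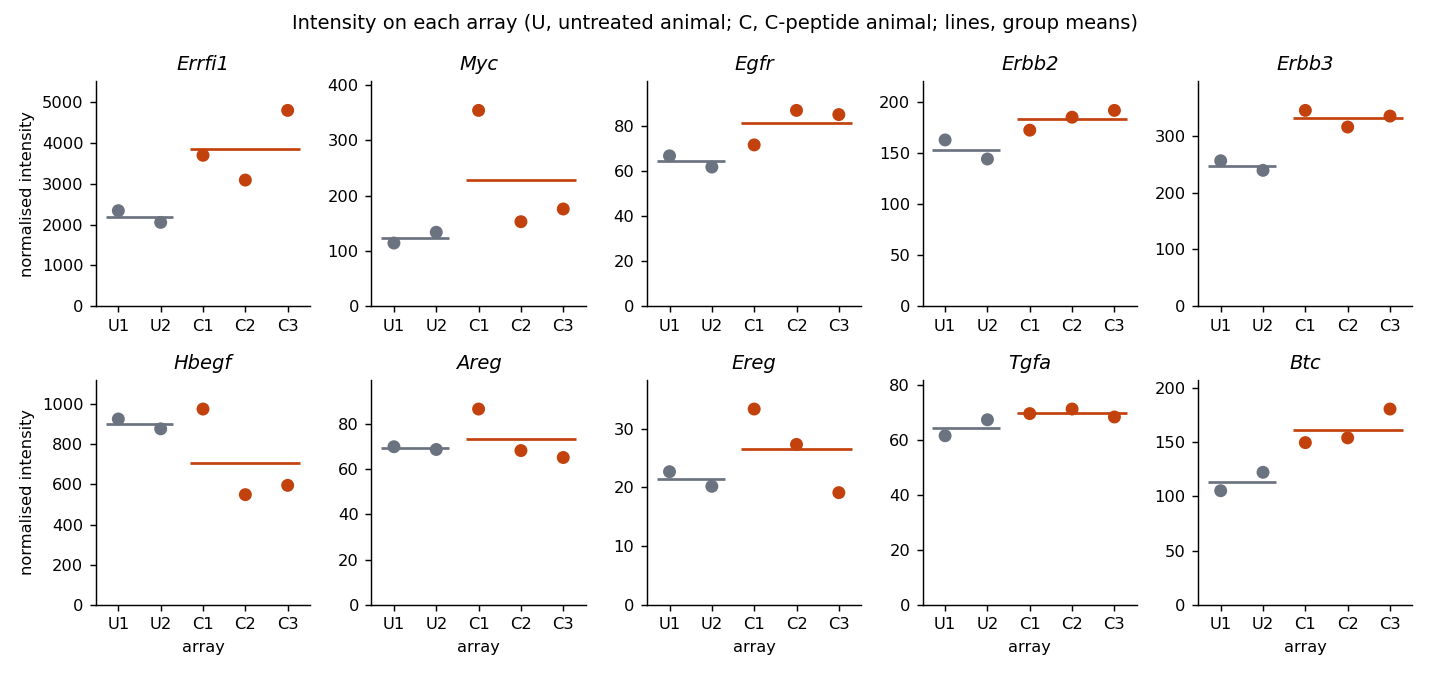
Normalised intensity (y axis, linear, from 0) of the 10 genes on each array (x axis: U1 and U2, untreated animals, C1 to C3, C-peptide animals), with lines at the group means. Errfi1 stands at 2052 and 2339 untreated against 3089 to 4796 with C-peptide, and the mean of Myc with C-peptide is pulled up by the array of animal 1 at 354.

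With C-peptide, 9 of the 10 genes had a mean log2 difference above 0 and 1, Hbegf, below 0. The median of the 10 was 0.25, beside 0.03 over all genes. In 7 of the 10, every C-peptide array lay above both untreated arrays, in none below and in 3 (Hbegf, Areg and Ereg) the groups overlapped, while over all genes the C-peptide arrays all lay above in 18.7% and all below in 14.9%. That separation depends on the scaling. In the deposited intensities it was seen for Errfi1 and Myc alone on the higher side and for Hbegf on the lower side, and the groups of the other 7 overlapped.

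Errfi1, the inhibitor of the receptor, gave the largest difference of the 10. Its intensity was 2339 and 2052 in untreated animals 1 and 2, and 3696, 3089 and 4796 in C-peptide animals 1, 2 and 3. The lowest treated array therefore stood clear of the higher untreated one, and the array of C-peptide animal 3 was the highest. Group means were 2195 ± 203 (SD, n = 2) and 3860 ± 866 (SD, n = 3), a log2 difference of 0.79 ± 0.21 (SE) or 1.73-fold. Deposited intensities were 2277 and 2332 in untreated animals 1 and 2, and 3146, 3326 and 5065 in C-peptide animals 1, 2 and 3. They kept the groups apart and C-peptide animal 3 highest. The rest of the order changed, with C-peptide animal 2 above animal 1 and untreated animal 2 above animal 1. When each array was left out in turn the difference ran from 0.63, without C-peptide animal 3, to 0.94, without C-peptide animal 2.

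Myc, whose protein pairs with Max to bind E-boxes, had a difference that rested largely on 1 array. Its intensity was 114 and 134 in untreated animals 1 and 2, and 354, 153 and 176 in C-peptide animals 1, 2 and 3. All 3 treated arrays were above both untreated ones, but the array of animal 1 was far above the other 2. Means were 124 ± 13.8 (SD, n = 2) and 228 ± 110.2 (SD, n = 3), with a log2 difference of 0.71 ± 0.32 (SE) or 1.64-fold. Without C-peptide animal 1 the difference was 0.37. Deposited intensities were 129 and 139.5 untreated and 251, 177 and 168 treated, so the array of animal 1 was also the highest before normalisation, although its median of 60.1 was the lowest of the 5.

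**Figure D2:**
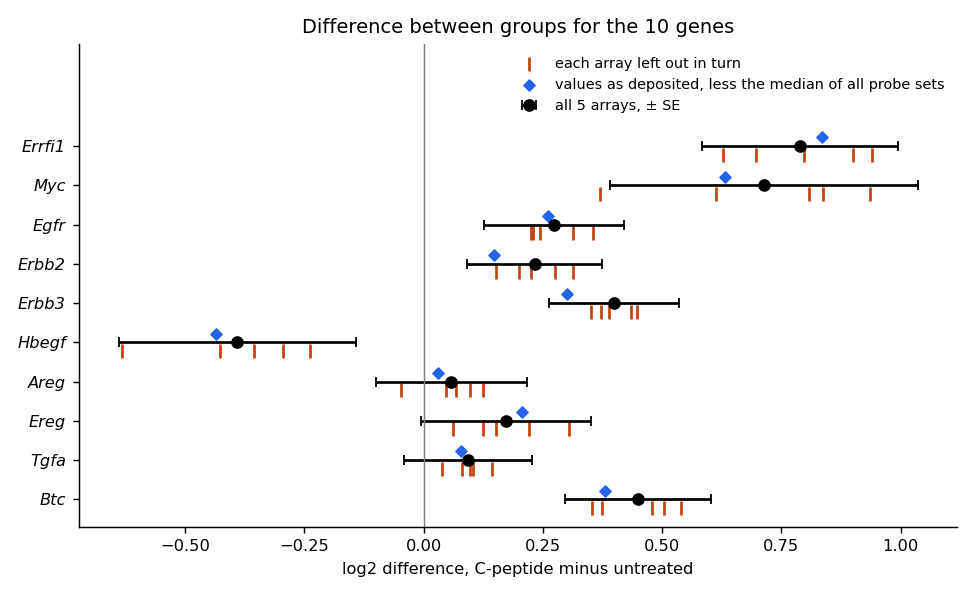
Log2 difference between C-peptide and untreated arrays (x axis) of the 10 genes (y axis), as the value over all 5 arrays with its SE (black), with each array left out in turn (orange ticks) and in the deposited values less the median of all probe sets (blue). Errfi1 runs from 0.63 to 0.94 with 1 array left out, Myc from 0.37 to 0.94, and Hbegf stays below 0 at -0.63 to -0.24.

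The 3 receptors had small differences of the same sign. Egfr, the receptor that binds EGF itself, was dim, below the median of all probe sets, at 66.6 and 61.6 untreated and 71.4, 86.7 and 84.9 with C-peptide. Erbb2, which has no known ligand of its own and serves as the partner of the others, was at 163 and 144.5 untreated and 173, 185.5 and 192 with C-peptide. Erbb3, which binds neuregulins and has a weak kinase, was at 256 and 239 untreated and 345, 315.5 and 335 with C-peptide. In each the normalised groups did not overlap, yet the deposited ones did. The log2 differences were 0.27 ± 0.15 for Egfr, 0.23 ± 0.14 for Erbb2 and 0.40 ± 0.14 for Erbb3 (SE), or 1.21-fold, 1.18-fold and 1.32-fold. Egfr and Erbb2 had the most alike profiles of any pair among the 10, with a root mean square distance of 0.05 between their centred log2 values over the 5 arrays.

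Among the ligands, Hbegf, the heparin-binding member that is also an early response gene, was the 1 gene with a mean below that of the untreated arrays. It stood at 926 and 877 in untreated animals 1 and 2, and at 976, 549 and 595 in C-peptide animals 1, 2 and 3. The array of C-peptide animal 1 was thus the highest of all 5 and the other 2 treated arrays the lowest. The log2 difference was -0.39 ± 0.25 (SE) with all arrays and -0.63 without C-peptide animal 1. In the deposited intensities all 3 treated arrays, at 743, 616 and 593, lay below the untreated ones at 980.1 and 956.

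Btc, betacellulin, which binds both EGFR and ERBB4, was the ligand with the largest positive difference. It was at 105 and 122 untreated and at 149.7, 154 and 181 with C-peptide, with no overlap after normalisation. Its log2 difference was 0.45 ± 0.15 (SE) or 1.37-fold, and 0.35 to 0.54 when single arrays were left out. As deposited the groups overlapped, with C-peptide animal 1 the lowest of all arrays, at 106 against 119 and 127 untreated.

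Areg, Ereg and Tgfa were dim, each below the median of all probe sets. Areg, amphiregulin, was at 70.0 and 68.8 untreated and 86.7, 68.3 and 65.2 with C-peptide, a log2 difference of 0.06 ± 0.16 (SE) that was -0.05 without C-peptide animal 1. Ereg, epiregulin, was at 22.7 and 20.2 untreated and 33.4, 27.3 and 19.1 with C-peptide, a log2 difference of 0.17 ± 0.18 (SE) that was 0.061 without C-peptide animal 1 and 0.30 without C-peptide animal 3. In both the treated arrays spanned the untreated ones, with C-peptide animal 1 highest and C-peptide animal 3 lowest. In the deposited intensities C-peptide animal 2 was the highest for both, at 80.1 for Areg and 32.4 for Ereg. Tgfa, transforming growth factor alpha, was at 61.5 and 67.3 untreated and 69.6, 71.2 and 68.3 with C-peptide, a log2 difference of 0.09 ± 0.13 (SE). Its normalised groups were separate by a margin smaller than the gap between the untreated arrays, and the deposited ones overlapped.

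The array of C-peptide animal 1 was the highest of the 5 for Myc, Erbb3, Hbegf, Areg and Ereg, while that of animal 3 was highest for Errfi1, Erbb2 and Btc and that of animal 2 for Egfr and Tgfa. These ranks depend on the scaling. In the deposited intensities the array of C-peptide animal 1, whose median of 60.1 was the lowest, was highest for Myc alone. For Erbb3 it was the lowest, at 244 against 257 to 360 on the others. Erbb2 and Btc as deposited were highest on the array of C-peptide animal 2. Errfi1 and Myc did not share a profile: the first peaked on the array of C-peptide animal 3 and the second on that of animal 1. The genes nearest to each in profile were picked on these same 5 arrays, among 8560 genes brighter than the median of all probe sets. They differed between Errfi1 and Myc, which follows from the root mean square distance of 0.44 between the profiles of Errfi1 and Myc. For Errfi1 they were Slc5a10, a sugar transporter (root mean square distance 0.06 in log2 units over the 5 arrays), Hdac6, a tubulin deacetylase (0.06), Cubn, the endocytic receptor cubilin (0.06), Dpys, dihydropyrimidinase (0.07) and Slc13a2, a dicarboxylate transporter (0.08). Cubn is also in the list of proximal tubule markers given above. In C-peptide animals 1, 2 and 3 Cubn was at 1821, 1592 and 2203, the order in which Errfi1 stood, and untreated it was at 1138 and 1058. For Myc the nearest included Cyp2d5, a cytochrome P450 (0.09), Rcan1, an inhibitor of calcineurin (0.10), Baat, which conjugates bile acids (0.14) and C7, a complement component (0.15). Rcan1, for example, was at 1526, 717.5 and 923 with C-peptide and at 529 and 696.5 untreated.

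**Figure D3:**
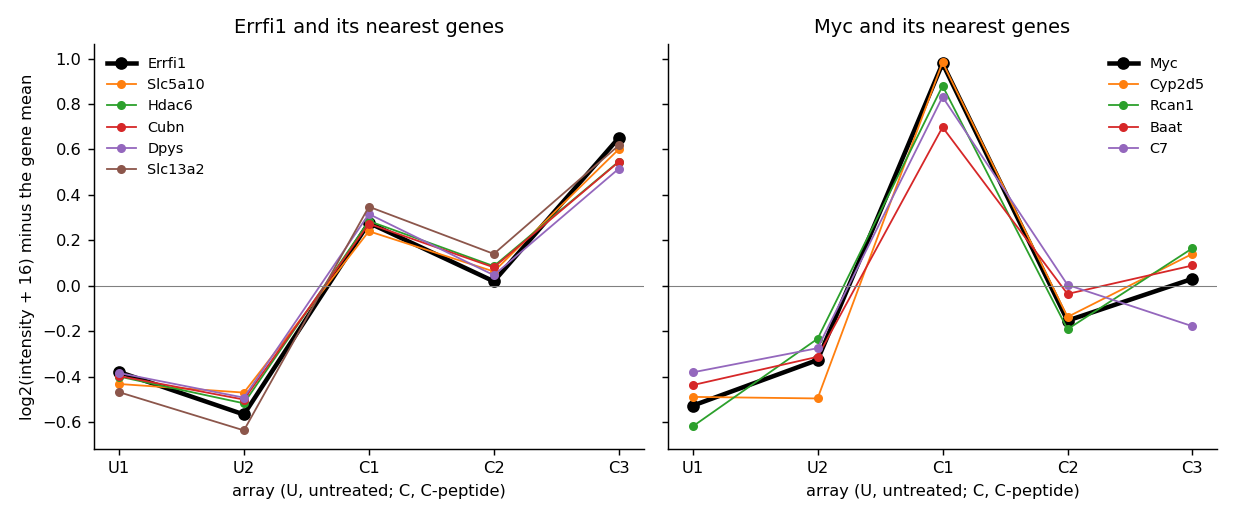
Log2(intensity + 16) minus each gene's mean (y axis) on the 5 arrays (x axis), for Errfi1 (left) and Myc (right) in black and the genes nearest to each in colour (5 and 4 genes), where lines join the points of 1 gene. Errfi1 and its neighbours are highest on the array of C-peptide animal 3, Myc and its neighbours on that of C-peptide animal 1. The neighbours were picked for closeness over these same arrays, so the shared peak follows from the choice.

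**Figure D4:**
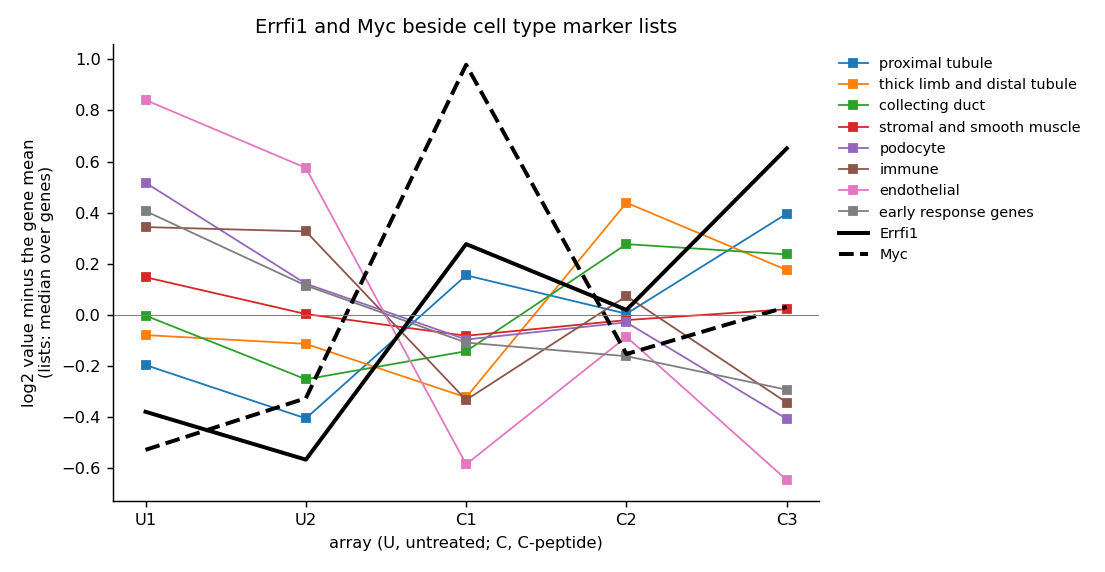
Log2 value minus the gene mean (y axis) on the 5 arrays (x axis), as single values for Errfi1 and Myc (black) and as medians over each marker list and over early response genes (colour), where lines join the points of 1 gene or list. Proximal tubule genes are highest on the array of C-peptide animal 3 (0.40), where Errfi1 is also highest, and no list peaks on the array of C-peptide animal 1 as Myc does.

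Relative to each gene's mean, proximal tubule markers had a median of -0.20 and -0.41 on the untreated arrays and 0.15, 0.00 and 0.40 in C-peptide animals 1, 2 and 3. After normalisation this is the same order over the 5 arrays as that of Errfi1, whose deposited intensities stood in another order. Endothelial markers stood at 0.84 and 0.58 untreated and -0.59, -0.09 and -0.65 treated. Myc, at 0.98 on the array of C-peptide animal 1, followed neither list. The part of cell composition in the difference of Errfi1 was not tested.

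Early response genes, which a cell switches on within minutes of a stimulus, are the group that Errfi1 and Myc were set against when they were chosen, so they are described with no test. Of 36 measured, 28 lay below 0 and 8 above, with a median of -0.54. All C-peptide arrays lay below the untreated ones in 20 of the 36 and above in 0, where 14.9% and 18.7% of all genes did so. Klf4 was at -1.62, Nfkbiz at -0.97 and Junb at -0.78. Without untreated animal 1 the median was -0.29. Errfi1 at 0.79 and Myc at 0.71 lay above the highest value in this list, 0.54. The value of Myc rested largely on C-peptide animal 1, without which it was 0.37.

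Other ligands and receptors of the family lay on the same side as the receptors. Of 7 listed genes 4 were measured, all above 0 with a median of 0.35, and 1 passed unadjusted p 0.05 as higher, beside 5.94% of all genes, none after adjustment. This was Nrg1, a neuregulin that binds ERBB3 and ERBB4, at 139 and 119 untreated and 199, 166 and 198 with C-peptide (log2 difference 0.49 ± 0.15 SE, limma unadjusted p = 0.0148, adjusted p = 0.314). As deposited its groups overlapped, with C-peptide animal 1 at 140 below untreated animal 1 at 157. Egf, made in the thick limb and distal tubule, was at 2291 and 1867 untreated and 1973, 3645 and 3035 with C-peptide, which overlapped (0.43 ± 0.26 SE, limma adjusted p = 0.586), and the median of the thick limb and distal markers, a list that includes Egf, was lowest on the array of C-peptide animal 1 (-0.32 relative to the gene means), where Egf was the lowest of the treated arrays but above untreated animal 2. Erbb4, the fourth receptor, had a difference of 0.27 ± 0.20 (SE, limma adjusted p = 0.675), and Nrg2 0.09 ± 0.19. The count of 1 was 0 without untreated animal 2 and 3 without C-peptide animal 1.

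Genes that cut ligands free or move them to the surface gave 8 measured of 11, with 6 below 0 and a median of -0.15. Adam17, the protease that releases most EGF receptor ligands, was the 1 gene past unadjusted p 0.05, beside 7.12% of all genes lower at that threshold. It was at 554 and 493 untreated and 351.5, 448 and 369 with C-peptide, without overlap (-0.42 ± 0.16 SE, limma unadjusted p = 0.0351, adjusted p = 0.404). It no longer passed without either untreated animal or C-peptide animal 3. Adam15, a related protease, had a difference of -0.32 ± 0.19 and Rhbdf2, which carries Adam17 to the surface, -0.22 ± 0.22 (SE).

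Of the signal relay below the receptor, 23 of 28 listed genes were measured, 16 below 0, with a median of -0.12. At unadjusted p 0.05 there were 3 lower and 0 higher, beside 7.12% and 5.94% of all genes, and 0 passed after adjustment. They were 3 proteins that dock on phosphorylated receptors: Nck1, an adaptor, at -0.63 ± 0.15 (SE, limma adjusted p = 0.187), Grb2, the adaptor that brings the Ras activator Sos, at -0.39 ± 0.15 (SE, limma adjusted p = 0.388) and Plcg1, a phospholipase, at -0.38 ± 0.15 (SE, limma adjusted p = 0.414). Nck1 stood at 330.0 and 363 untreated and 202, 238 and 216 with C-peptide. The count of 3 was 1 without either untreated animal and without C-peptide animal 1 or 2.

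Other brakes on the receptor had differences from -0.98 to 0.33, all below that of Errfi1, which was chosen for lying higher in this contrast. Cbl, Lrig1 and Ubash3b were among the listed brakes but had no value. Of 21 listed genes that inhibit or degrade receptors 18 were measured, 11 of them below 0, with a median of -0.09, and 3 were lower and 0 higher at unadjusted p 0.05, where 7.12% and 5.94% of all genes were, none after adjustment. Socs3, a cytokine-induced inhibitor of receptor signalling, was at 2022 and 1562 untreated and 875.5, 1029 and 792 with C-peptide. Its difference was -0.98 ± 0.18 (SE, limma unadjusted p = 0.000888, adjusted p = 0.134), and it passed the adjusted threshold with a trended and robust variance prior and when a gene's probe sets were averaged. Socs5, which promotes degradation of the EGF receptor, was at 984 and 658 untreated and 520.0, 527 and 477 with C-peptide (-0.65 ± 0.19 SE, limma adjusted p = 0.282), and Sh3kbp1, an adaptor in receptor uptake, had -0.43 ± 0.18 (SE, limma adjusted p = 0.422). Without untreated animal 1 the count of 3 was 1, and it was 2 without C-peptide animal 1, C-peptide animal 3 or untreated animal 2.

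**Figure D5:**
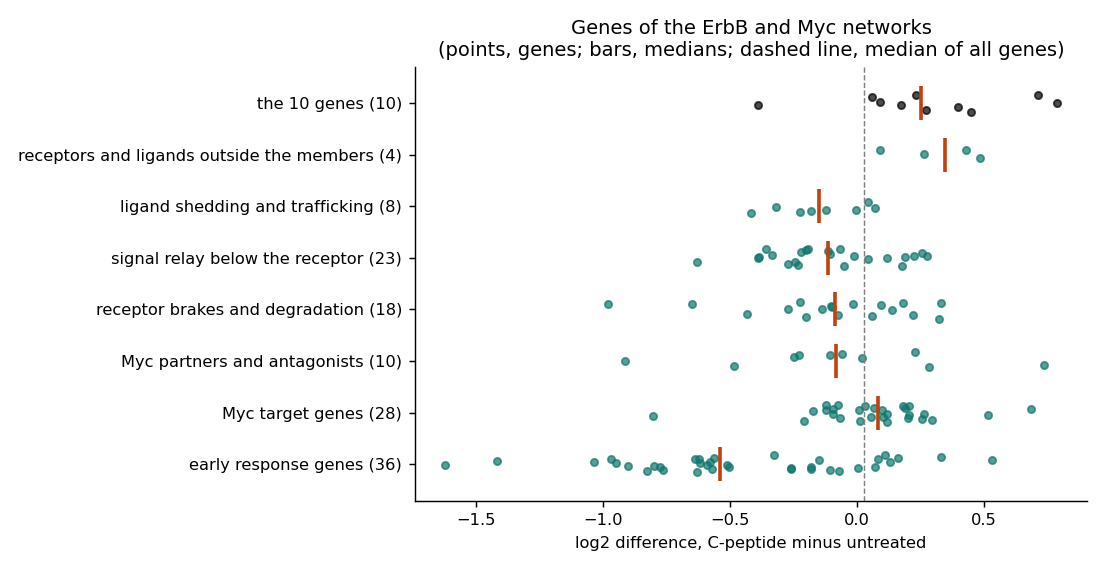
Log2 difference between C-peptide and untreated arrays (x axis) of every measured gene (points) in each list (y axis, number of genes in brackets), with orange bars at the list medians and a dashed line at the median of all genes (0.03). Early response genes have a median of -0.54, while Errfi1 and Myc are the 2 points farthest right among the 10 genes.

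Around Myc, 10 of 14 listed partners and antagonists were measured, 6 below 0, with a median of -0.08. At unadjusted p 0.05, 1 was higher and 2 were lower, against all-gene shares of 5.94% and 7.12%, none after adjustment. Mxd3, which competes with Myc for Max, was at 44.7 and 32.6 untreated and 64.5, 104.6 and 61.0 with C-peptide (0.74 ± 0.23 SE, limma adjusted p = 0.304). As deposited its groups overlapped, with C-peptide animal 1 at 48.0 below untreated animal 1 at 49.5. Mxd4, of the same family, had -0.48 ± 0.15 (SE, limma adjusted p = 0.316). Mycn, the related N-Myc, was at 93.3 and 91.6 untreated and 27.5, 73.6 and 32.8 with C-peptide (-0.91 ± 0.30 SE, limma adjusted p = 0.331). Max itself was at 519 and 563 untreated and 396, 521 and 449 with C-peptide (-0.25 ± 0.16 SE), with overlap. Without untreated animal 1, 1 was higher and 0 lower, without untreated animal 2, 0 were higher and 1 lower, without C-peptide animal 3, 1 each, and without C-peptide animal 1, 2 each.

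Genes that Myc is known to drive gave all 28 of 28 measured, with 19 above 0 and a median of 0.08, beside 0.03 over all genes. In the deposited values that median was 0.0012, and it was 0.014 with untreated animal 2 left out and 0.03 with C-peptide animal 1 left out. At unadjusted p 0.05, 1 of the 28 was higher and 1 lower, no more than the 5.94% and 7.12% of all genes, and none passed after adjustment. Tfrc, the transferrin receptor, was at 217 and 248 untreated and 320, 343 and 513 with C-peptide (0.69 ± 0.22 SE, limma adjusted p = 0.316). It was highest on the array of animal 3 and not on that of animal 1, where Myc was highest. As deposited its groups overlapped, with C-peptide animal 1 at 225 against 243 and 266 untreated. Ccnd2, cyclin D2, lay the other way, at 773 and 746 untreated and 469.5, 447 and 376 with C-peptide (-0.80 ± 0.15 SE, limma adjusted p = 0.138), and passed the adjusted threshold with a trended and robust prior and when probe sets were averaged. Shmt1, an enzyme of folate metabolism, was at 271 and 270.0 untreated and 513, 288.5 and 412 with C-peptide, and Odc1, the ornithine decarboxylase of polyamine synthesis, at 1243 and 1017 untreated and 1531, 1261 and 1291 with C-peptide. Both were highest on the array of C-peptide animal 1, with log2 differences of 0.52 ± 0.23 and 0.27 ± 0.16 (SE, limma adjusted p = 0.461 and 0.593). That rank depends on the scaling. As deposited, Shmt1 was highest on C-peptide animal 3, at 401 against 370 on animal 1. Odc1 on C-peptide animal 1, at 1218 as deposited, was below untreated animal 1 at 1280. The count higher was 0 without untreated animal 1 and 3 without C-peptide animal 2.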

How the data were processed

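Total RNA was amplified, labelled with biotin by a whole-transcript protocol and hybridised to 1 array per sample, per the labels' protocols. The authors deposited linear probe-set intensities that PLIER in Affymetrix Expression Console 1.1 had made, as the submitters' processing notes name these tools. The sources used here do not state the background correction, scaling or build. The array medians differed, so intensities were quantile normalised, taken to log2(value + 16) and fitted on all 29215 probe sets with limma 3.58.1 (lmFit, eBayes, two-sided tests; R 4.3.3). A gene was its brightest probe set with a single symbol, which held for 15310 probe sets (323 had several symbols, 13582 none). Symbols were updated through RefSeq (GRCr8), where 15279 matched. The fit was tested on simulated arrays.

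The 10 genes, the lists and the naming rule were chosen with earlier results of these data known. The rule named the 10 genes, up to 3 genes of each list with the smallest p, a few fixed genes and the 5 nearest profiles of Errfi1 and Myc, 1 of which is not reported here. Listed genes with no value are not analysed here. Replicates of a group are separate animals, per the labels. Alternatives were the deposited values, centring, pseudocounts, a filter, probe-set means, other priors and weights, the animal number as a block and leaving out each array.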

Additional observations from a re-analysis of the deposited data

How the results depend on the processing

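Among alternatives that can move a difference of the 10 genes, 107 of 110 values moved by less than the spread between replicates (29 others, under the filter, probe-set means and the other prior, are equal by construction), and 1 value changed sign (Areg, -0.05 without C-peptide animal 1). The exceptions were Erbb3, at 0.30 in the deposited values, and Tgfa, at 0.039 to 0.14 with single arrays left out. Leaving out 1 of the 3 C-peptide arrays shifts their mean by less than that spread by arithmetic, apart from re-normalisation. The count of 107 is therefore no measure of robustness. It includes Myc without C-peptide animal 1, which went from 0.71 to 0.37 beside a spread of 0.50. Alternative scalings, priors and filters changed the number of probe sets called at adjusted p 0.05, which was 0 in the stated fit, to 52 in the deposited values, 29 after centring, 1 and 118 at pseudocounts of 1 and 64, 134 above the lower quartile of brightness and 207 with a trended and robust prior. At unadjusted p under 0.05 there were 2058 in the deposited values (193 higher, 1865 lower, against 1477 and 1840 after quantile normalisation) and 1765 to 3483 with single arrays left out, the lowest without untreated animal 1. Tests in the deposited values were made against 0, with the shift of -0.13 over all probe sets left in. The counts of 52, 2058, 193 and 1865 therefore carry that shift. Differences and medians given here for the deposited values have it taken off, and the median of the signal relay was then -0.20. With single arrays left out, medians ran from 0.21 to 0.45 for other receptors and ligands, -0.25 to -0.016 for ligand shedding, -0.22 to -0.022 for the signal relay, -0.15 to 0.01 for receptor brakes, -0.16 to 0.00 for Myc partners, 0.014 to 0.09 for Myc targets and -0.60 to -0.29 for early response genes. Over all alternatives, counts of list genes at unadjusted p under 0.05 ran from 0 to 3 higher for other receptors and ligands (1 in the stated fit), 1 to 7 lower for the signal relay (3, with 7 at a pseudocount of 64), 0 to 1 lower for ligand shedding (1, with 0 at a pseudocount of 1 and with the replicate block), 1 to 3 lower and 0 to 2 higher for receptor brakes (3 and 0, with 2 higher at a pseudocount of 64), 0 to 2 in each direction for Myc partners (1 higher, 2 lower) and 0 to 3 higher for Myc targets (1). The causes were not tested. Counts per list past the adjusted threshold under each alternative were added after the data were seen.

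The animal numbers are shared by the groups, and the numbers were not taken as pairs. Deviations of same-numbered arrays from their group means correlated at -0.02 and 0.01. The deviations of 2 untreated arrays mirror each other, so both values rest on 1 contrast and cannot settle whether animals were shared. With the replicate block, 2668 probe sets had unadjusted p under 0.05 and 0 were called, Errfi1 was at 0.62, Myc at 0.84 and the median of early response genes at -0.46. Number 3 occurs only with C-peptide, so that array adds nothing to the blocked difference. The blocked values were thus close to those without C-peptide animal 3, at 0.63 for Errfi1 and 0.84 for Myc. Ereg had no value under the filter. The 2 untreated arrays limit every difference, and leaving 1 out assumes that the other varies like the treated arrays.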
